A study of Mus musculus with 19 samples.

Results

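The genes described here are 40 interferon-stimulated antiviral genes, the products by which a cell limits virus growth once interferon has reached it, followed across 6 groups of mouse CD8 T cells on 19 Affymetrix arrays. A gene counted as measured where a probe set was annotated to that gene alone, and the brightest such probe set by its mean over the 19 arrays stood for it. This rule gave 37 of the 40 genes, out of 19938 genes measured in the same way. Isg15, the ubiquitin-like modifier, was left out because its probe set is annotated to several genes, and Ifi44 and Phf11b had no probe set named for them in the annotation used. Values are log2 signals as deposited, so a difference of 1 is a 2-fold difference in signal. Levels of different genes come from different probe sets and are not set against each other.

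All cells were purified CD8 T lymphocytes. The T-betKO Stat5ca transferred group (3 arrays) held T-BetKO cells, which lack the transcription factor gene Tbx21, labelled with strain C57BL/6 and background B10.D2. The design text calls these cells TCRP1A as well, whereas their sample names do not. The labelling protocol given for these arrays also differs from that of the other 5 groups. They were stimulated with anti-CD3/CD28, given Stat5ca, a constitutively active Stat5 (a transcription factor), after 24 h, moved into congenic hosts at 72 h and recovered from spleen and lymph nodes on day 14 (replicates 39 and 40) or day 54 (replicate 41). The other 5 groups were named as TCRP1A and held transgenic Rag-1-/- cells on a B10.D2 background. These have a single T-cell receptor specificity and come from animals that make no other T or B cells. The Stat5ca transferred group (4 arrays, replicates 11 to 14) held cells activated by their antigen, transduced to express Stat5ca and recovered from hosts on day 20. The control transferred group held activated cells without Stat5ca, recovered on day 18 (replicate 30) or day 120 (replicate 32). The Stat5ca 72 h group (replicates 9 and 10, labelled GFP+) and the control 72 h group (replicates 1 to 4) were analysed straight from culture after 72 h of antigen. Naive cells (replicates 33 to 36) were the unactivated controls. Controls are not labelled as carrying an empty vector, so Stat5ca and transduction cannot be told apart. Nothing in the labels ties a replicate to its own animal or culture. The p-values therefore weigh differences against the variation among these arrays only, and part of that may be technical.

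Type I and type II interferons signal through their receptors and Janus kinases to STAT proteins. Type I interferon assembles the complex ISGF3, of which STAT2 and IRF9 are subunits and which binds the interferon-stimulated response element (ISRE) in target promoters, while interferon gamma acts through gamma-activated sites (GAS). STAT5 dimers recognise a closely related site. Among the targets are sensors that detect viral RNA or DNA, effectors that block viral replication, and regulators such as IRF7, which amplifies type I interferon production, and USP18, which strips ISG15 from proteins and damps the receptor. Resting lymphocytes are known to carry a tonic level of these transcripts maintained by low interferon.

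Promoter windows were available for 27 of the 37 measured genes, from 250 bases before to 50 bases after a RefSeq start site on GRCm38.p6. The 4 windows below are examples. Ifit1, Ifit3 and Ddx60 were called lower than naive cells in control 72 h, control transferred and Stat5ca transferred cells. Irf7, whose window does not hold the motif, was called lower in control 72 h and Stat5ca transferred cells but not in control transferred cells. The window of Oasl2, which fell further than Ddx60 in control 72 h cells, holds no match and is not shown. The examples therefore do not tie the size of a fall to the motif. They are written 5′ to 3′ on the strand of the gene in lower case, with each match to GAAANNGAA (read on both strands, the core of the ISRE) in capitals. They lie at chr19:34640639-34640938 (plus strand) for Ifit1, chr19:34583279-34583578 (plus strand) for Ifit3, chr8:61927837-61928136 (plus strand) for Ddx60 and chr7:141266375-141266674 (minus strand) for Irf7.
Ifit1: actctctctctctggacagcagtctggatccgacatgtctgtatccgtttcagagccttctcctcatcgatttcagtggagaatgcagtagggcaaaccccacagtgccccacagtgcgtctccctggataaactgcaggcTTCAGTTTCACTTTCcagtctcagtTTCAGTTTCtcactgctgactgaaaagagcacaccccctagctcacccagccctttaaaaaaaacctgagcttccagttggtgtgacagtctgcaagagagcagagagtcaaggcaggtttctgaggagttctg
Ifit3: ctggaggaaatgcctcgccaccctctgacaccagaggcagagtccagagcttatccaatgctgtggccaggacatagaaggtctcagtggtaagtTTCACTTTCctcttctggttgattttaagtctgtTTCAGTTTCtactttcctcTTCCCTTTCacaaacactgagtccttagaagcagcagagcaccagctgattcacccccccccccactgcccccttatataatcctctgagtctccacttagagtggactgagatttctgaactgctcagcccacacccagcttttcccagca
Ddx60: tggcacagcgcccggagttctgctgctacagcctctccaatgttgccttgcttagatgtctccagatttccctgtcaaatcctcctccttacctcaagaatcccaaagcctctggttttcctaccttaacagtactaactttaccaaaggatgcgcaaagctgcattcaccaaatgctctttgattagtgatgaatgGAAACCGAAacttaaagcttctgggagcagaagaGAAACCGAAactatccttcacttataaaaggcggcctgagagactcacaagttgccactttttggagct
Irf7: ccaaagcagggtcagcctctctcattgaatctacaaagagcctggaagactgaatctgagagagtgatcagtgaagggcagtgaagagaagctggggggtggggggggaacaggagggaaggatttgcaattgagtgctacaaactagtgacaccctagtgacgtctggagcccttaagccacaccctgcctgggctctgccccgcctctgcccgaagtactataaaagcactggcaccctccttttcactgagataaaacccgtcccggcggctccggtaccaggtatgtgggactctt
Ifit1 held 3 matches, the first bases at −109, −103 and −84 from the start site, of which the first 2 overlap, and Ifit3 held 3 at −155, −121 and −102. Ddx60, a helicase related to the RIG-I family, held 2 at −53 and −19. The Irf7 window held none, which says only that these letters are not in this window.

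Of the 27 genes, 13 (48.1%) held the ISRE core in at least 1 window, against 9.8% of 27025 genes with a window. Matches also stood in the windows of Bst2, Eif2ak2, Ifih1, Oas3, Adar, Trim30a, Ddx58, Rsad2, Samd9l and Trim25. The GAS motif TTCNNNGAA, which is its own reverse complement, occurred in 6 of 27 genes (22.2%), against 9.6% of all genes, and 3 of the 27 (Adar, Bst2 and Eif2ak2) held both motifs. Both Adar matches lie in the windows of another start. Windows without an ISRE core included those of Irf9, Oasl1, Oasl2, Parp12, Ifit2 and Isg20, whose transcripts are nevertheless described below. A match is a description of the letters and not a measured binding site.

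**Figure D1:**
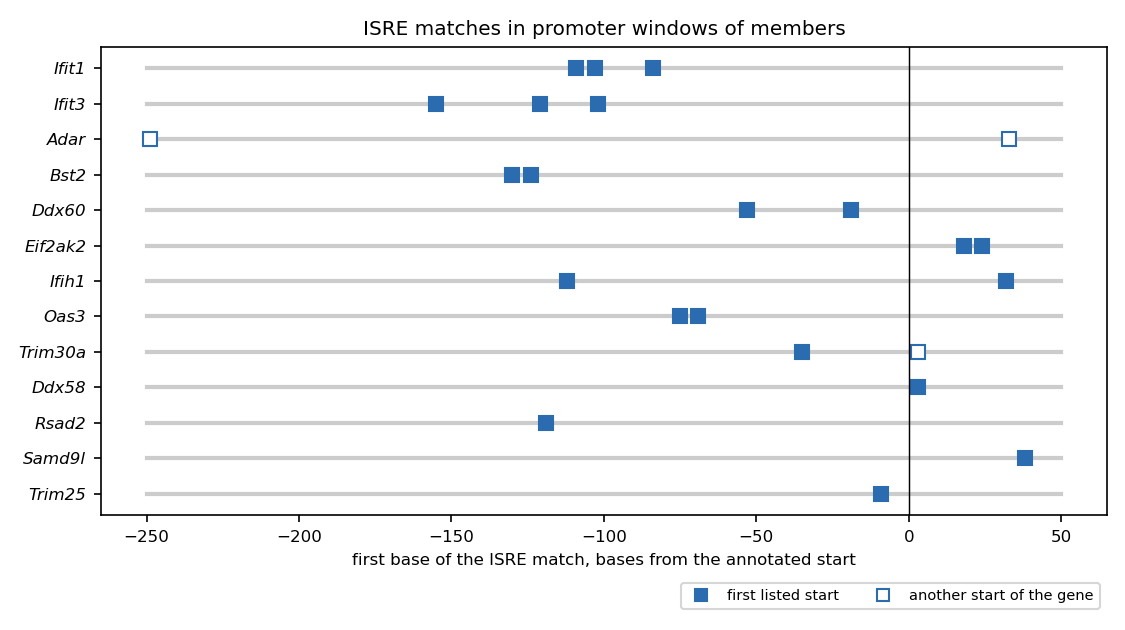
Positions of ISRE core matches (GAAANNGAA, either strand) in the promoter windows of the 13 genes that held one, as distance in bases of the first base of the match from the RefSeq start site. Grey lines span the 300-base windows and open squares mark matches in the window of another start of the gene. Ifit1 and Ifit3 each had 3 matches upstream of the start.

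Array medians lay between 7.69 and 7.89, and 8 of 8 CD8 T-cell markers stood above background in every group. The background, 7.32, was the 95th percentile of 1190 olfactory and vomeronasal receptor genes over all arrays. Other cell types were also seen: the mean of 17 myeloid markers was 10.47 to 12.20 in T-betKO Stat5ca transferred arrays, 9.53 to 10.38 in Stat5ca transferred, 12.03 and 12.24 in control transferred, 7.25 and 7.38 in Stat5ca 72 h, 8.32 to 9.12 in control 72 h and 8.09 to 11.50 in naive arrays. Under background were 12 of 17 of them in Stat5ca 72 h and 3 of 17 in control 72 h, and 0 of 17 elsewhere. B-cell markers were under background for 4 to 6 of 7 genes in every group. Several arrays of one group differed very little over all genes: replicates 34 and 36, 1 and 4, 2 and 3, 11 with 12 and 14, and 39 with 40 had an SD of differences under 0.2, and each result was also computed with such arrays averaged, which left 13 samples. Stat5a averaged 10.93 in T-betKO Stat5ca transferred, 11.68 in Stat5ca transferred, 10.25 in control transferred, 12.06 in Stat5ca 72 h, 10.56 in control 72 h and 10.38 in naive cells, and Tbx21 averaged 8.24, 11.83, 11.13, 10.83, 11.11 and 8.54 in the same groups. Stat5a was thus highest with Stat5ca at 72 h, and Tbx21 lowest in T-betKO cells.

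Naive cells carried the highest group mean for 21 of the 37 genes. Stat5ca 72 h cells were highest for 8, control transferred for 5 and Stat5ca transferred for 3 genes, and neither T-betKO Stat5ca transferred nor control 72 h cells were highest for any. Control 72 h cells were lowest for 11 genes, T-betKO Stat5ca transferred for 10, Stat5ca 72 h for 9, Stat5ca transferred for 4, control transferred for 2 and naive cells for 1. The median over the 37 group means was 9.83 in T-betKO Stat5ca transferred, 9.90 in Stat5ca transferred, 10.48 in control transferred, 9.62 in Stat5ca 72 h, 9.54 in control 72 h and 10.73 in naive cells. Group means under background were those of Ifit3, Mx2 and Ddx60 in control 72 h cells, Mx1 and Mx2 in Stat5ca 72 h cells, and Mx2 in all 3 transferred groups.

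**Figure D2:**
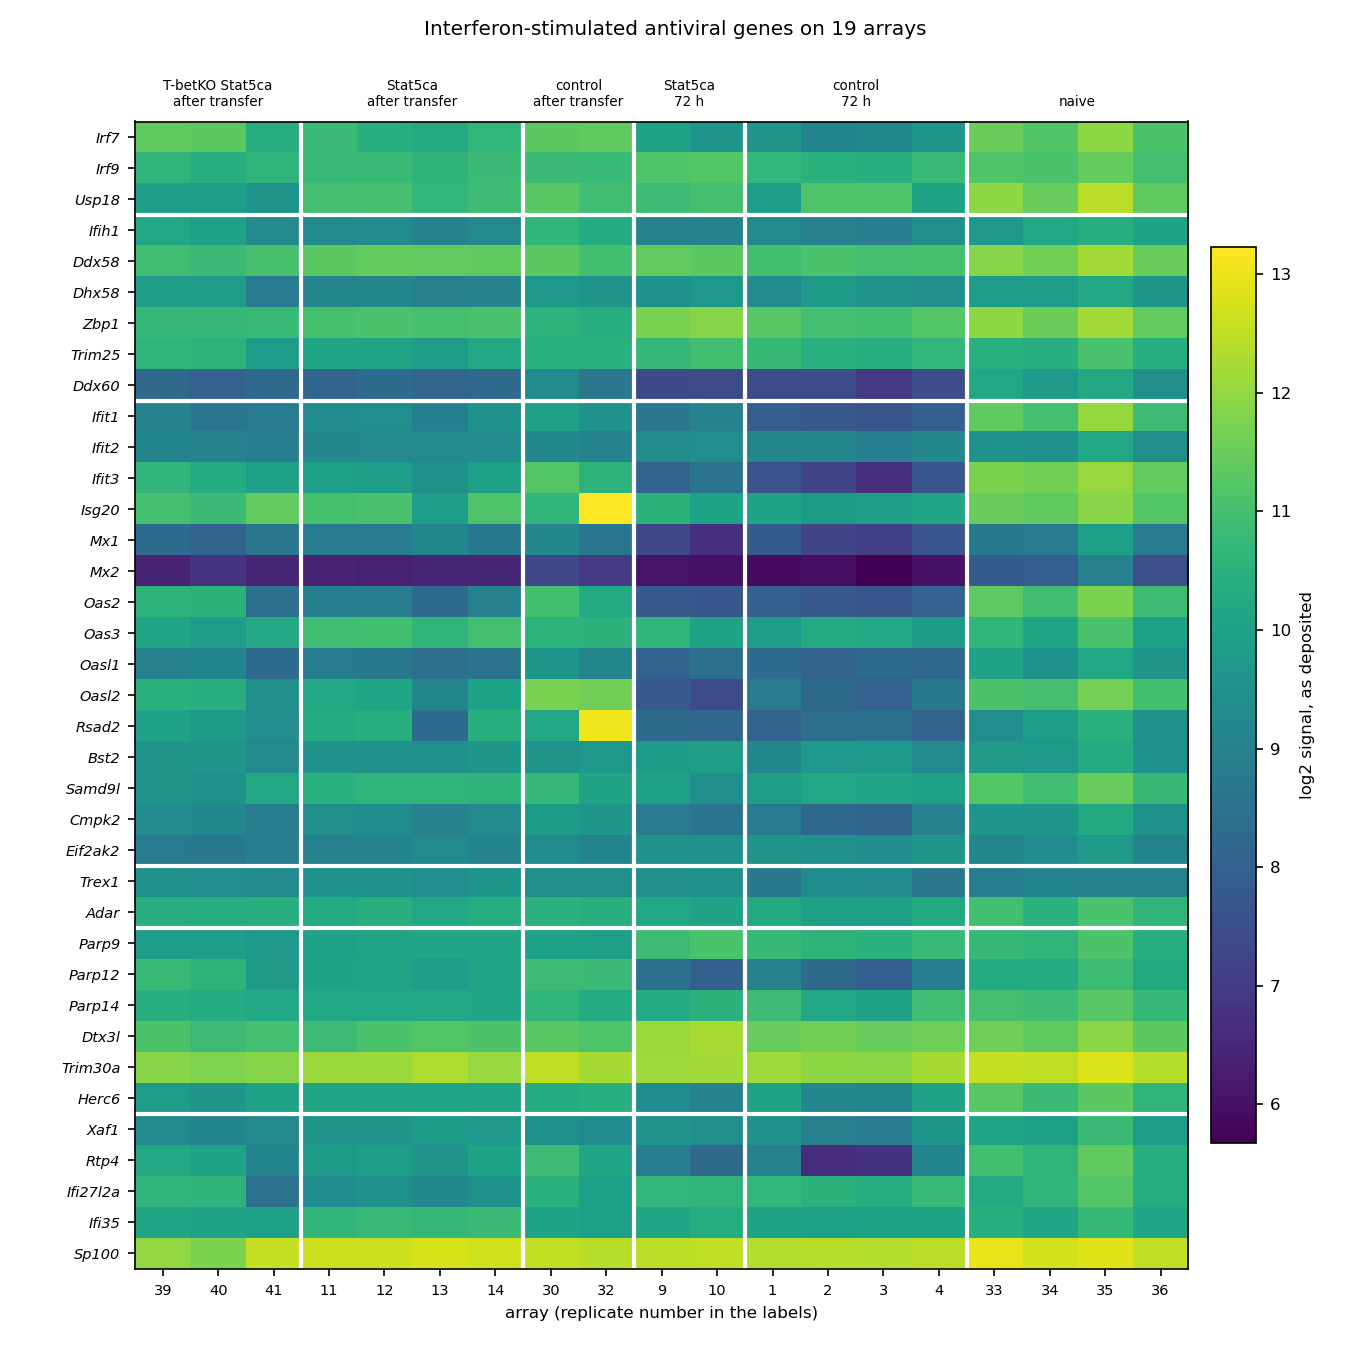
Deposited log2 signal of the 37 measured interferon-stimulated genes on each of the 19 arrays, shown as colour, with genes in rows by role (white lines separate the 6 role groups) and arrays in columns by group. Within a row, naive arrays are the brightest for most genes, Ifit3, Ddx60 and Oas2 are darkest in the 72 h arrays, and Rsad2 and Isg20 are brightest on replicate 32 of control transferred cells.

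The first question was what 72 h of antigen did to these transcripts. At 72 h, control cells held lower levels than naive cells of 29 of the 37 genes and higher levels of 0 (limma, Benjamini-Hochberg adjusted p under 0.05 over all genes, the threshold for every call here). Over all 19938 genes 24.9% were called lower and 22.0% higher. The median change of the 37 was −0.95, against −0.089 for all genes, and for 27 of the 29 no array of one group overlapped the other. A change of at least 2-fold was seen for 17 of the 29. The shares of all called genes without overlap, or with a 2-fold change, were not computed for any comparison. Such counts therefore describe the 37 genes alone and do not set them apart from other genes.

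The effectors gave the widest gaps. Ifit3, an RNA-binding partner of Ifit1, had log2 signals of 7.59, 7.24, 6.73 and 7.68 in control 72 h cells, against 11.75, 11.62, 12.06 and 11.41 in naive cells. All 4 activated arrays were near or under the array background, and the change was −4.40 ± 0.21 (SE, adjusted p = 1.45e-09), or −4.39 counted from background. Ifit1, which binds viral RNA lacking a host-type cap, had 7.96, 7.79, 7.70 and 7.99 in control 72 h cells, against 11.39, 10.96, 12.04 and 10.86 in naive cells, a change of −3.45 ± 0.22 (adjusted p = 1.38e-08). Oas2, which makes the oligoadenylates that activate RNase L, had 8.01, 7.79, 7.70 and 8.06 in control 72 h cells and 11.36, 10.92, 11.73 and 10.85 in naive cells. The groups were separate for each of these genes, and Oas2 fell by 3.33 ± 0.20 on the log2 scale (adjusted p = 1.19e-08). Oasl2, a mouse member of the OAS family, fell by 2.69 ± 0.23 (adjusted p = 3.68e-07). Of the 15 effectors 12 fell, and those not called were Oas3 (−0.45), Bst2, the membrane tether of budding viruses (−0.36), and Eif2ak2, the kinase PKR (0.20).

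The regulators and sensors followed with smaller changes. Irf7 had 9.62, 9.09, 9.21 and 9.64 in control 72 h cells, against 11.52, 11.19, 11.96 and 11.10 in naive cells, with no overlap, and changed by −2.05 ± 0.18 (adjusted p = 5.61e-07). Usp18 had 9.90, 11.14, 11.14 and 10.03 in control 72 h cells and 11.96, 11.47, 12.44 and 11.39 in naive cells, and changed by −1.26 ± 0.28 (adjusted p = 0.00209). Replicates 2 and 3 thus stood close to naive cells for Usp18, and replicates 1 and 4 did not. Irf9, the DNA-binding subunit of ISGF3, had 10.68, 10.50, 10.45 and 10.75 in control 72 h cells, against 11.17, 11.08, 11.45 and 10.99 in naive cells, and changed by −0.58 ± 0.10 (adjusted p = 0.000242). Among the sensors 5 of 6 fell, with Ddx60 at −2.58 ± 0.18 (adjusted p = 3.56e-08). Rtp4, a chaperone of receptor trafficking with antiviral activity, fell by 2.97 ± 0.47 (adjusted p = 0.000132), with an unequal spread described further on.

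Around the 37 genes, 19 of 36 other interferon-stimulated genes fell and 2 rose, among the falls Rnf213, a giant ubiquitin ligase (−1.95), Ifi205 (−1.79) and Phf11c (−1.72). Of 16 receptor and signalling genes 6 rose and 4 fell, with the receptor subunits Ifngr1 at 0.66, Ifnar1 at 0.65 and Ifngr2 at −0.71. The nucleic acid receptors Tlr7 (−2.31), Tlr3 (−1.41) and Tlr9 (−1.19) fell, with 5 of 10 genes of that list lower and 1 higher, and 3 of 7 interferon ligand genes were lower and 0 higher. Stat2 (0.03, adjusted p = 0.847) and Ifng, encoding interferon gamma (0.24, adjusted p = 0.432), were not called. Myeloid markers fell for 8 of 17 genes and conventional dendritic cell markers for 6 of 6. With the myeloid level as a covariate all 29 calls remained and 31 were made. Shares of all genes called are not given for this fit, nor for other refits unless stated. Such refit counts describe the 37 genes alone. In bulk samples fewer cells of a type and less RNA per cell cannot be told apart. Of the 29 calls 25 held whichever single array was left out.

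**Figure D3:**
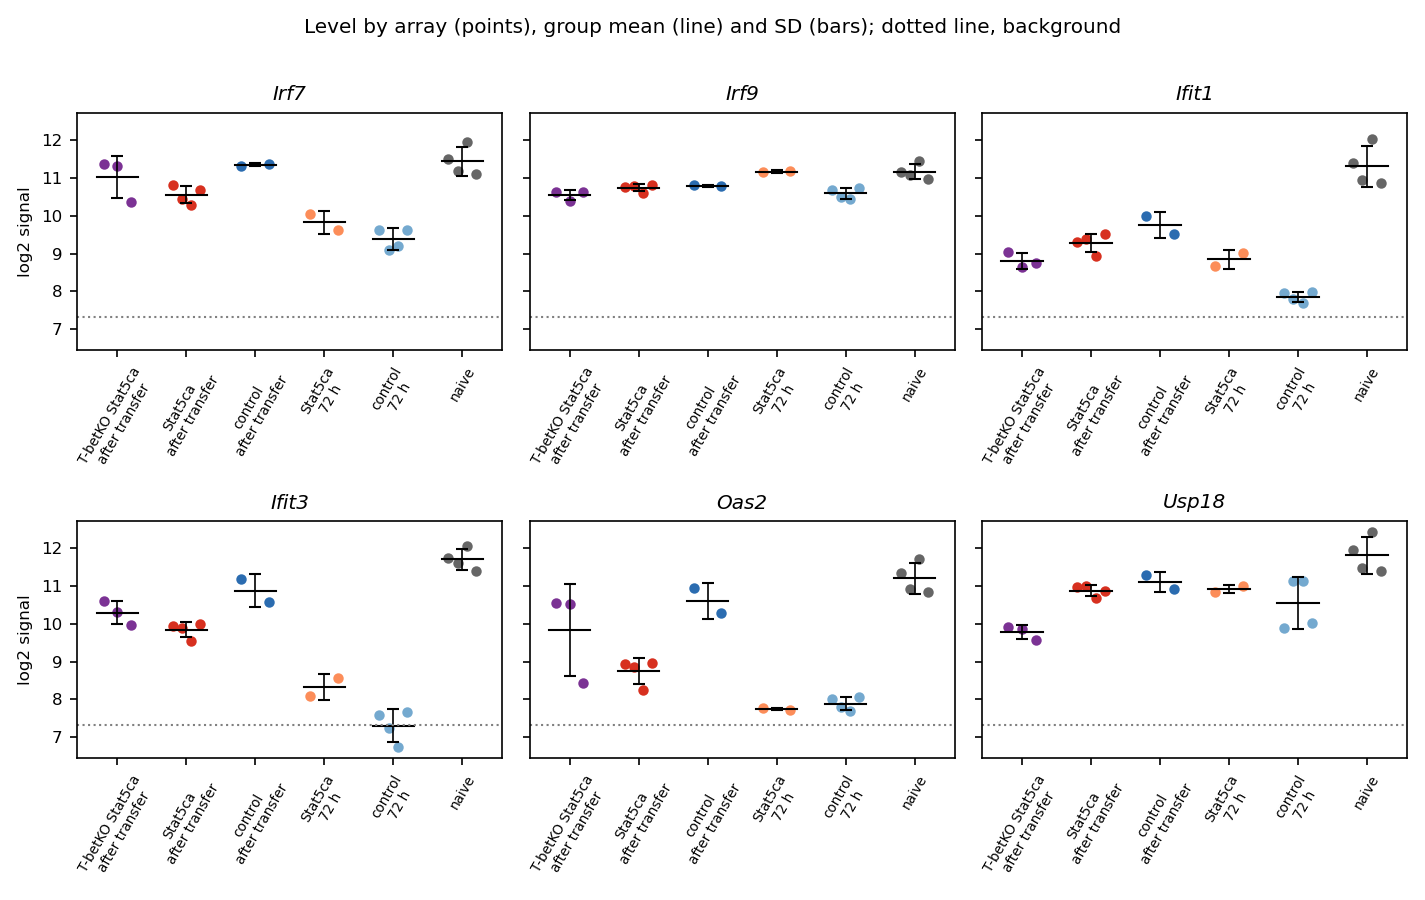
Log2 signal of Irf7, Irf9, Ifit1, Ifit3, Oas2 and Usp18 on every array, by group, with points for arrays, horizontal lines for group means, error bars for the SD and a dotted line at the array background of 7.32. Control 72 h cells sit lowest for Ifit1, Ifit3 and Irf7, with Ifit3 around the background line, and naive cells highest for Irf7, Usp18, Ifit1, Ifit3 and Oas2.

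The second question was what Stat5ca changed at 72 h. Stat5ca 72 h cells held higher levels than control 72 h cells of 5 of the 37 genes, Ifit3, Ifit1, Zbp1, Dtx3l and Irf9, and lower levels of 0, where 2.37% of all genes were called higher and 3.35% lower. The median change was 0.18 for the 37 genes and 0.04 for all genes. None of the 5 overlapped between the groups, and only Ifit3 exceeded 2-fold.

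Ifit3 had 8.09 and 8.57 in Stat5ca 72 h cells, against 7.59, 7.24, 6.73 and 7.68 in control 72 h cells, a change of 1.02 ± 0.26 (adjusted p = 0.0308; 1.01 counted from background). Ifit1 had 8.67 and 9.03 in Stat5ca 72 h cells, against 7.96, 7.79, 7.70 and 7.99 in control 72 h cells (0.99 ± 0.26, adjusted p = 0.0404). Both genes stayed well below every naive array. Irf9 had 11.15 and 11.20 in Stat5ca 72 h cells, against 10.68, 10.50, 10.45 and 10.75 in control 72 h cells (0.58 ± 0.12, adjusted p = 0.0115), which places both Stat5ca arrays inside the range of the 4 naive arrays. Dtx3l, the ubiquitin ligase partner of Parp9, had 12.10 and 12.23 in Stat5ca 72 h cells, above all naive arrays as well, against 11.48, 11.62, 11.46 and 11.56 in control 72 h cells (0.64 ± 0.14, adjusted p = 0.0153). Zbp1, a sensor of Z-form nucleic acid, had 11.70 and 11.87 in Stat5ca 72 h cells, against 11.28, 10.96, 10.93 and 11.25 in control 72 h cells (0.67 ± 0.17, adjusted p = 0.0346).

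Irf7 (0.45 ± 0.23, adjusted p = 0.295) and Usp18 (0.38 ± 0.34, adjusted p = 0.596) were not called, nor was Oasl2 (−0.86 ± 0.29, adjusted p = 0.0934), although its arrays did not overlap. Oasl2 was called lower without replicate 3 (adjusted p = 0.0453) and with RNA integrity as a covariate (−1.17, adjusted p = 0.0279), and in that fit Irf9 alone of the 5 remained called. Of 36 other interferon-stimulated genes 3 rose and 0 fell (Phf11a 0.52, Lgals3bp 0.41, Shisa5 0.32). Of the receptor and signalling genes 3 of 16 rose and 0 fell: Ifngr2 (0.78), Socs1, a feedback inhibitor of Janus kinases (0.74), and Irf1, the transcription factor induced early by interferon gamma (0.66). Of 7 ligand genes and 10 adaptor genes 0 were called. Stat2 (0.43, adjusted p = 0.059) and Ifng (1.05, adjusted p = 0.0585) did not pass. The calls rest on few arrays: 3 were made without replicate 2 or without replicate 4, 0 without replicate 9 or without replicate 10, and 0 with near-identical arrays averaged. The myeloid level was 7.25 and 7.38 in Stat5ca 72 h cells and 8.32 to 9.12 in control 72 h cells, and 2 calls (Dtx3l and Irf9) remained with it as a covariate.

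The third question was where these transcripts stood after transfer into hosts. Control transferred cells held higher levels than control 72 h cells of 16 genes and lower levels of 2, where 13.1% of all genes were called higher and 24.4% lower. The median change of the 37 was 0.42, against −0.037 for all genes, none of the 18 overlapped, and 15 passed 2-fold. This comparison and the one with naive cells share the control transferred arrays, and the control 72 h arrays also enter the 2 comparisons above.

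Of the 15 effectors 10 rose and 0 fell, Mx2 among the 10 although both of its group means were under background (7.12 in control transferred and 5.90 in control 72 h cells). Ifit3 had 11.20 and 10.57 in control transferred cells, against 7.59, 7.24, 6.73 and 7.68 in control 72 h cells (3.58 ± 0.26, adjusted p = 1.14e-07; 3.57 counted from background). Oas2 had 10.94 and 10.28 in control transferred cells, against 8.01, 7.79, 7.70 and 8.06 in control 72 h cells (2.72 ± 0.25, adjusted p = 9.76e-07). Oasl2 had 11.72 and 11.62 in control transferred cells and 8.81, 8.29, 8.06 and 8.74 in control 72 h cells (3.20 ± 0.29, adjusted p = 7.56e-07). For Oasl2, replicate 30 (11.72) stood just above the naive range (10.93 to 11.64) and replicate 32 (11.62) near its top. Both transferred arrays lay below the naive range for Ifit3 (11.41 to 12.06), and Oas2 had 1 array inside the naive range. Ifit1 was higher by 1.91 ± 0.26 (adjusted p = 4.23e-05), with 10.01 and 9.51 in control transferred cells. Irf7 had 11.33 and 11.38 in control transferred cells, against 9.62, 9.09, 9.21 and 9.64 in control 72 h cells (1.96 ± 0.23, adjusted p = 8.24e-06), a level within the naive range. Parp12, an ADP-ribosyltransferase with antiviral activity, was higher by 2.30 ± 0.25 (adjusted p = 4.72e-06) and Rtp4 by 2.59 ± 0.57 (adjusted p = 0.00202).

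The 2 genes that fell were Parp9 (−0.68 ± 0.14, adjusted p = 0.00148), the partner of Dtx3l, and Zbp1 (−0.62 ± 0.17, adjusted p = 0.0102). Irf9 (0.20, adjusted p = 0.235) and Usp18 (0.56, adjusted p = 0.241) were not called. Rsad2, or viperin, which makes a chain-terminating nucleotide, had 10.19 on day 18 and 13.06 on day 120 in control transferred cells, against 8.08, 8.41, 8.45 and 8.09 in control 72 h cells (3.37 ± 0.65, adjusted p = 0.000671). The 2 transferred arrays were far apart. Without replicate 32, the day 120 array, the change in Rsad2 was 1.94 (adjusted p = 0.0288). The exonuclease gene Isg20 had 10.66 and 13.23 in control transferred cells, against 10.06, 9.80, 9.92 and 10.11 in control 72 h cells (1.97 ± 0.50, adjusted p = 0.00501), and without replicate 32 the change of Isg20 was 0.687 (adjusted p = 0.214), no longer a call.

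Other interferon-stimulated genes rose for 12 and fell for 8 of 36, led by Ifi205 (4.32), the membrane protein gene Ifitm3 (2.65) and Ube2l6, the ISG15-conjugating enzyme (2.58). Tlr7 (3.58), Tlr3 (3.38, or 2.43 from background) and Tlr9 (2.62) were higher, with 4 of 10 adaptor and receptor genes up and 1 down. Among 16 receptor and signalling genes 4 rose and 3 fell, with Irf5 at 1.67, Socs1 at −1.01 and Ifnar1 at −0.72, and of 7 ligand genes Ifng alone rose (3.25). Stat2 was not called (−0.15, adjusted p = 0.408). In the same arrays 14 of 17 myeloid markers rose, with a mean level of 12.03 and 12.24 in control transferred cells and 8.32 to 9.12 in control 72 h cells. With the myeloid level as a covariate 18 genes were again called, 13 of them the same and all higher, the falls of Parp9 and Zbp1 were not called, and Ifitm3 turned to −0.451 (adjusted p = 0.59).

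Against naive cells, control transferred cells held lower levels of 11 genes and higher levels of 0, where 9.81% of all genes were called lower and 7.94% higher. The median change was −0.37 for the 37 genes and −0.12 for all genes. Ifit1 had 10.01 and 9.51 in control transferred cells, against 11.39, 10.96, 12.04 and 10.86 in naive cells (−1.55 ± 0.26, adjusted p = 0.0019). Zbp1 had 10.56 and 10.42 in control transferred cells, against 11.96, 11.53, 12.19 and 11.42 in naive cells (−1.28 ± 0.17, adjusted p = 0.000409). Both genes were separate between the groups, as were the other 9, and only these 2 passed 2-fold. Mx2, a dynamin-like GTPase, changed by −0.95 ± 0.27 (adjusted p = 0.0244; −0.756 from background), Ddx60 by −0.91 ± 0.22 (adjusted p = 0.0122), Ifit3 by −0.82 ± 0.26 (adjusted p = 0.0382), Xaf1, a pro-apoptotic interferon target, by −0.79 ± 0.25 (adjusted p = 0.0447) and Irf9 by −0.38 ± 0.12 (adjusted p = 0.0399). Irf7 (−0.09, adjusted p = 0.791), Usp18 (−0.71, adjusted p = 0.157) and Stat2 (−0.12, adjusted p = 0.484) were not called.

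Of the other interferon-stimulated genes 14 of 36 fell and 5 rose, with Oas1b at −1.40, Ifi205 at 2.53 and Ube2l6 at 1.81. Ifng rose by 3.49 (adjusted p = 1.54e-05), the 1 called of 7 ligand genes. Receptor and signalling genes rose for 4 and fell for 1 of 16 (Irf5 1.65, Ifngr1 0.78, Il10rb 0.63), and adaptors rose for 3 and fell for 2 of 10 (Tlr3 1.97, Tlr9 1.44, Tlr7 1.27). Myeloid markers were higher for 8 of 17 genes and 7 of 8 CD8 T-cell markers were lower, and with that level as a covariate Ifit1 and Zbp1 remained called. The count of 11 was 6 without replicate 33, 7 without replicate 35 and 3 without replicate 32, and only Ifit1, Parp9 and Zbp1 were called whichever array was left out. It was 19 without naive replicates 34 and 36 but 5 without 33 and 35, and with the compared groups alone in the fit it was 1, Zbp1 (Ifit1 adjusted p = 0.0711).

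The fourth question was what Stat5ca changed after transfer. Stat5ca transferred cells held lower levels than control transferred cells of 10 genes and higher levels of 2, where 8.46% of all genes were called lower and 16.9% higher. The median change was −0.25 for the 37 genes, against 0.076 for all genes, and no called gene overlapped between the groups. Oas2 had 8.94, 8.85, 8.24 and 8.96 in Stat5ca transferred cells, against 10.94 and 10.28 in control transferred cells (−1.86 ± 0.25, adjusted p = 0.000162). Oasl2 had 10.24, 10.14, 9.15 and 10.05 in Stat5ca transferred cells, against 11.72 and 11.62 in control transferred cells (−1.78 ± 0.29, adjusted p = 0.000528). Ifih1, the RNA sensor MDA5, had 9.26, 9.31, 9.05 and 9.27 in Stat5ca transferred cells, against 10.65 and 10.33 in control transferred cells (−1.27 ± 0.17, adjusted p = 0.000191). Every Stat5ca array lay below both controls for these 3 genes.

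Ifit3 had 9.94, 9.89, 9.55 and 10.01 in Stat5ca transferred cells, against 11.20 and 10.57 in control transferred cells (−1.04 ± 0.26, adjusted p = 0.00779), so here it was lower with Stat5ca although it was higher with Stat5ca at 72 h. Irf7 had 10.81, 10.45, 10.30 and 10.69 in Stat5ca transferred cells, against 11.33 and 11.38 in control transferred cells (−0.79 ± 0.23, adjusted p = 0.0188). Parp12 fell by 0.83 ± 0.25 (adjusted p = 0.0242), Ifi27l2a, a mitochondrial protein gene of the interferon response, by 0.82 ± 0.22 (adjusted p = 0.013). Dhx58, the MDA5 co-factor LGP2, was at −0.58 and Oasl1, which represses Irf7 translation in mice, at −0.74. The genes that rose were Ifi35 (0.74 ± 0.14, adjusted p = 0.00134), whose product binds the interferon-induced protein Nmi, and Zbp1 (0.56 ± 0.17, adjusted p = 0.0261). Irf9 (−0.05, adjusted p = 0.827), Usp18 (−0.22, adjusted p = 0.704) and Ifit1 (−0.48, adjusted p = 0.215) were not called, nor were Rsad2 (−1.74 ± 0.65, adjusted p = 0.062) and Isg20 (−1.16, adjusted p = 0.106), whose control arrays were far apart.

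Other interferon-stimulated genes fell for 7 and rose for 2 of 36 (Ifitm1 2.24, Phf11d −1.04, Tdrd7 −0.73). Ifng rose by 1.56 (adjusted p = 0.00202) and Socs1 by 1.85, and 3 of 16 receptor and signalling genes were higher and 3 lower, Irf5 at −1.54 and Ifngr2 at −1.11 among them. Tlr7 (−2.48), Tlr9 (−1.50) and Tlr3 (−1.28) were the 3 adaptor-list genes that fell, and 1 rose. Stat2 was at −0.32 (adjusted p = 0.073). The mean myeloid level was 9.53 to 10.38 in Stat5ca transferred cells and 12.03 and 12.24 in control transferred cells, 7 of 17 myeloid markers fell and 6 of 8 CD8 T-cell markers rose. With the myeloid level as a covariate 10 genes were called, 9 of them the same, including Oas2, Oasl2, Ifih1, Ifit3 and Irf7. With a sex marker, the level of Xist minus that of Y-linked genes, as a covariate, 10 of the 12 remained called. Irf7 (−0.62, adjusted p = 0.0618) and Parp12 (−0.55, adjusted p = 0.0682) did not. The count of 12 was 6 without replicate 30, and 4 genes (Ifi35, Ifih1, Oas2 and Oasl2) were called whichever array was left out.

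**Figure D4:**
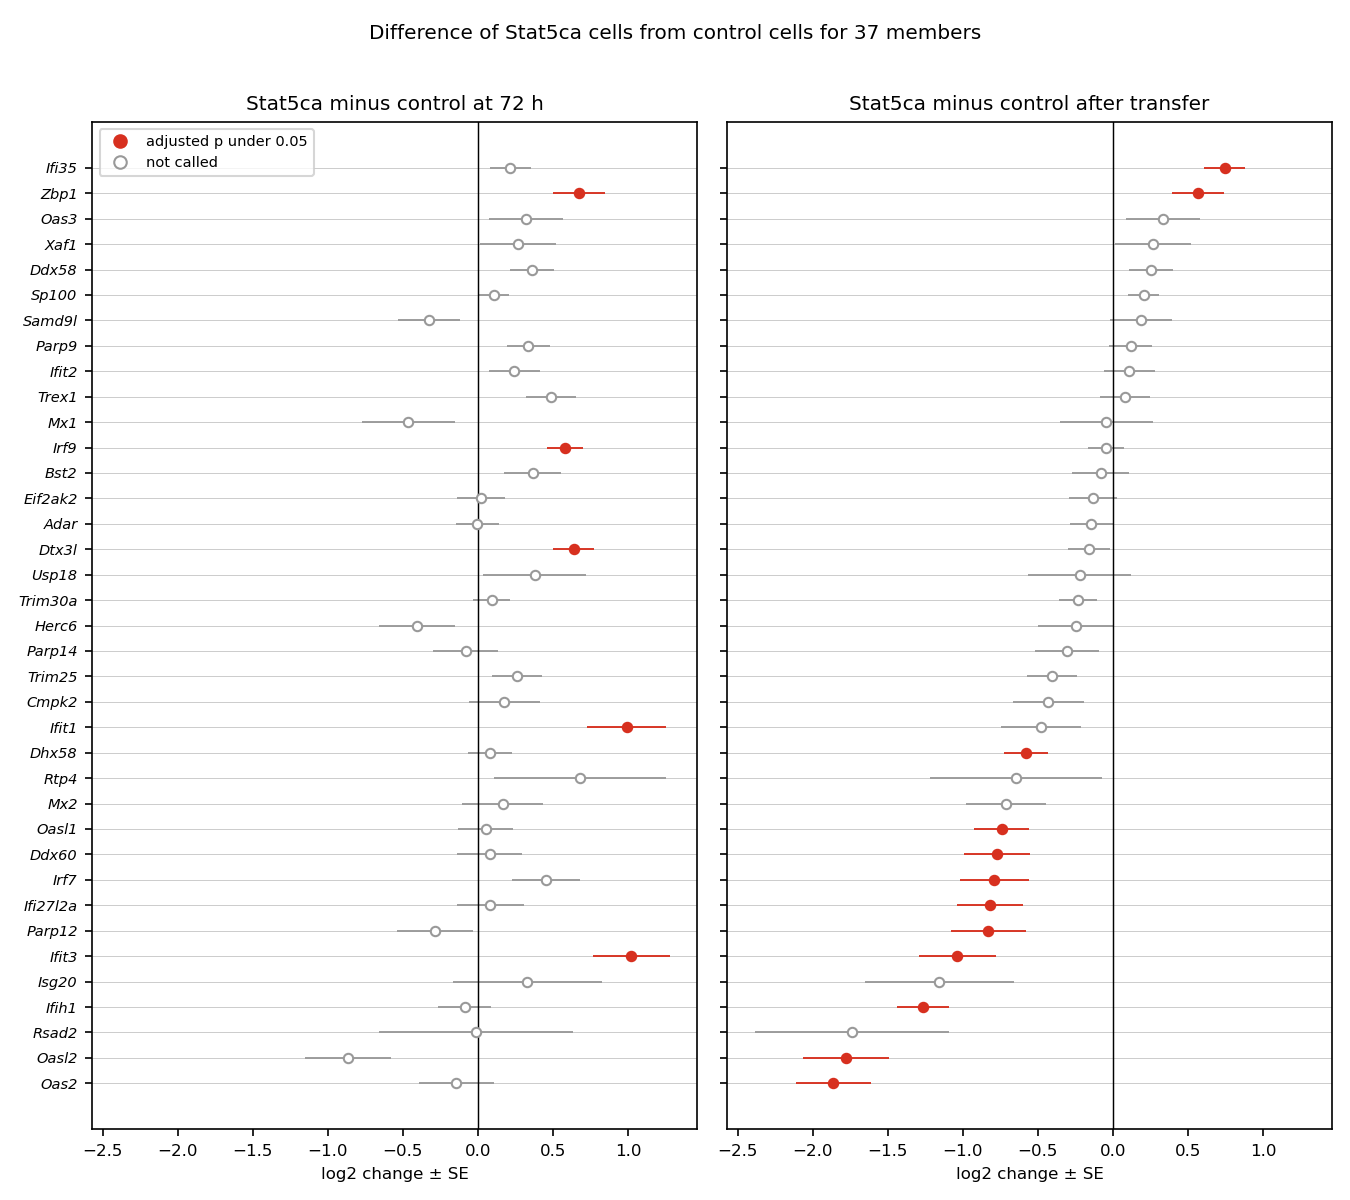
Log2 change (Stat5ca minus control, with its SE) at 72 h on the left and after transfer on the right, for the 37 measured genes in rows ordered by the change after transfer, with called genes as filled red points. Ifit3 lies at 1.02 at 72 h and −1.04 after transfer, 5 genes are filled at 72 h, all above 0, and 12 after transfer, 10 of them below 0.

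The difference between those changes was itself tested. The Stat5ca effect after transfer was lower than the effect at 72 h for 9 genes and higher for 0, where 5.48% of all genes were called lower and 12.3% higher. The median difference was −0.60 for the 37 genes and 0.014 for all genes. Ifit3 differed by −2.06 ± 0.36 (adjusted p = 0.00145), Oas2 by −1.72 ± 0.35 (adjusted p = 0.00399), Ifit1 by −1.47 ± 0.37 (adjusted p = 0.0135), Irf7 by −1.24 ± 0.32 (adjusted p = 0.015), Ifih1 by −1.18 ± 0.25 (adjusted p = 0.00453) and Dtx3l by −0.80 ± 0.20 (adjusted p = 0.0116). Ifit3, Oas2 and Ifih1 were called whichever array was left out and also with near-identical arrays averaged, and the count was 4 without replicate 10. Irf9 (−0.63 ± 0.17, adjusted p = 0.0189), Oasl1 (−0.79) and Dhx58 (−0.66) completed the 9, and Usp18 did not pass (−0.60, adjusted p = 0.481). Stat2 differed by −0.75 (adjusted p = 0.00877), Ifngr2 by −1.89, Irf5 by −1.64 and Socs1 by 1.11, and of 36 other interferon-stimulated genes 4 were lower and 0 higher (Lgals3bp −1.01, Tor3a −0.78, Phf11d −0.73). In the same contrast 3 of 5 plasmacytoid dendritic cell markers and Cd4 (−2.25) were lower, 2 of 8 CD8 T-cell markers were higher, and of 17 myeloid markers 1 was higher and 1 lower. With RNA integrity as a covariate 3 genes (Ifih1, Ifit3 and Oas2) were called lower and Ifi35 higher (0.70, adjusted p = 0.0409).

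Within the Stat5ca cells, transfer went with both rises and falls. Stat5ca transferred cells held higher levels than Stat5ca 72 h cells of 10 genes and lower levels of 7, where 8.61% of all genes were called higher and 12.7% lower. The median change was 0.20, against −0.019 for all genes, and no called gene overlapped. Oasl2 had 10.24, 10.14, 9.15 and 10.05 in Stat5ca transferred cells and 7.79 and 7.43 in Stat5ca 72 h cells (2.29 ± 0.29, adjusted p = 4.7e-05). Mx1, a dynamin-like GTPase against RNA viruses, had 8.81, 8.81, 9.13 and 8.73 in Stat5ca transferred cells and 7.27 and 6.70 in Stat5ca 72 h cells (1.88 ± 0.31, adjusted p = 0.000489; 1.55 from background). Parp12 rose by 1.76 ± 0.25 (adjusted p = 0.000145), Ifit3 by 1.52 ± 0.26 (adjusted p = 0.000591), Oas2 by 1.0 ± 0.25 (adjusted p = 0.00925) and Herc6, the main ISG15 ligase of mice, by 0.95 ± 0.25 (adjusted p = 0.0143). Of the 15 effectors 5 rose and 0 fell, and Irf7 rose as well (0.73 ± 0.23, adjusted p = 0.0326).

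Of the 7 that fell, 0 were effectors. Dtx3l had 10.85, 11.08, 11.20 and 11.11 in Stat5ca transferred cells, against 12.10 and 12.23 in Stat5ca 72 h cells (−1.11 ± 0.14, adjusted p = 4.84e-05). Its partner Parp9 changed by −0.90 ± 0.14 (adjusted p = 0.000409). Ifi27l2a changed by −1.26 ± 0.22 (adjusted p = 0.00078), Trim25, a ubiquitin ligase of the RIG-I pathway, by −0.75 ± 0.17 (adjusted p = 0.00452), Zbp1 by −0.73 ± 0.17 (adjusted p = 0.00707), Dhx58 by −0.56 ± 0.14 (adjusted p = 0.0125) and Irf9 by −0.43 ± 0.12 (adjusted p = 0.0174). Stat2, which pairs with Irf9 in ISGF3, also fell (−0.90, adjusted p = 0.000118), with Ifngr2 (−1.31) and Irf1 (−0.75), and of 16 receptor and signalling genes 5 fell and 1 rose. Ifit1 (0.43, adjusted p = 0.303) and Usp18 (−0.04, adjusted p = 0.963) were not called.

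Of other interferon-stimulated genes 7 of 36 rose and 4 fell (Ifi205 4.74, or 3.09 from background; Ifitm3 3.63; Ifitm1 3.52). Ifng rose by 3.76, and Tlr3 (2.11), Tlr9 (1.13) and Cgas, the cytosolic DNA sensor (0.73), rose among 3 of 10 adaptor-list genes, with 1 lower. Myeloid markers rose for 11 of 17 genes, with a level of 9.53 to 10.38 in Stat5ca transferred cells and 7.25 and 7.38 in Stat5ca 72 h cells, and erythroid markers for 2 of 2, and 13 of the 17 member calls remained once the myeloid level was a covariate. Without replicate 10 the count was 8, with near-identical arrays averaged 9 and with the erythroid level as a covariate 11. Dtx3l, Ifi27l2a, Ifit3, Mx1, Oasl2, Parp12 and Parp9 were called whichever array was left out.

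Against naive cells, Stat5ca transferred cells held lower levels of 24 genes and higher levels of 2, where 12.7% of all genes were called lower and 15.8% higher. The median change was −0.52 for the 37 genes and −0.049 for all genes. The naive arrays are shared with the comparisons of the control groups. All 3 measured regulators and all 6 sensors were lower, with 8 of 15 effectors and 5 of 6 ADP-ribosylation and ubiquitin genes. Oas2 had 8.94, 8.85, 8.24 and 8.96 in Stat5ca transferred cells, against 11.36, 10.92, 11.73 and 10.85 in naive cells (−2.47 ± 0.20, adjusted p = 6.87e-07). Ifit1 had 9.32, 9.38, 8.93 and 9.51 in Stat5ca transferred cells, against 11.39, 10.96, 12.04 and 10.86 in naive cells (−2.03 ± 0.22, adjusted p = 8.79e-06). Neither gene overlapped between the groups.

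Ifit3 (−1.86 ± 0.21, adjusted p = 1.41e-05), Ddx60 (−1.68 ± 0.18, adjusted p = 8.88e-06), Mx2 (−1.67 ± 0.22, adjusted p = 5.69e-05, or −0.756 from background) and Oasl2 (−1.27 ± 0.23, adjusted p = 0.000856) followed. Irf7 changed by −0.88 ± 0.18 (adjusted p = 0.00243), Usp18 by −0.93 ± 0.28 (adjusted p = 0.0219) and Irf9 by −0.43 ± 0.10 (adjusted p = 0.00412). Trex1, a DNA exonuclease that limits sensing of self DNA, was the non-overlapping gene that rose, with 9.55, 9.51, 9.38 and 9.65 in Stat5ca transferred cells, against 8.87, 9.07, 9.00 and 9.02 in naive cells (0.53 ± 0.14, adjusted p = 0.0086). Other interferon-stimulated genes fell for 16 and rose for 3 of 36 (Ifitm1 3.76, Ifitm2 2.16, Rnf213 −1.45). Of 7 ligand genes 1 rose, Ifng (5.05), and 2 fell. Of 16 receptor and signalling genes 5 rose and 2 fell (Socs1 1.36, Ifngr2 −1.24, Ifngr1 0.71), Stat2 was at −0.45 (adjusted p = 0.00413), and of 10 adaptor genes 1 rose and 2 fell (Tlr7 −1.21, Cgas 0.68, Ikbke −0.61). Of 17 myeloid markers 0 were called, 22 of the 26 calls held whichever array was left out, and 17 were made with near-identical arrays averaged.

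The last comparison set T-betKO Stat5ca transferred cells against Stat5ca transferred cells. T-betKO cells held lower levels of 6 genes and higher levels of 0, where 13.8% of all genes were called lower and 7.03% higher, so the share of 37 called lower is close to the background. The median change was −0.15 for the 37 genes and −0.02 for all genes. Usp18 had 9.91, 9.87 and 9.58 in T-betKO Stat5ca transferred cells, against 10.98, 11.01, 10.68 and 10.87 in Stat5ca transferred cells (−1.10 ± 0.29, adjusted p = 0.0134). Ifi35 had 10.14, 10.03 and 10.01 in T-betKO Stat5ca transferred cells, against 10.66, 10.75, 10.70 and 10.82 in Stat5ca transferred cells (−0.67 ± 0.12, adjusted p = 0.00117). Both were separate on every array, and these 2 genes were called whichever single array was left out. With near-identical arrays averaged neither was called (Usp18 adjusted p = 0.171, Ifi35 adjusted p = 0.0809) and the count was 0, and without both day 14 arrays Ifi35 alone was called (Usp18 adjusted p = 0.12). The other falls were in Oas3 (−0.80 ± 0.21, adjusted p = 0.014), Samd9l, a restriction factor of poxviruses (−0.78 ± 0.20, adjusted p = 0.0112), Sp100, a nuclear body protein (−0.57 ± 0.14, adjusted p = 0.00945) and Ddx58, the RNA sensor RIG-I (−0.47 ± 0.12, adjusted p = 0.0147).

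Irf7 (0.46, adjusted p = 0.192), Irf9 (−0.19, adjusted p = 0.219), Ifit1 (−0.47, adjusted p = 0.155), Ifih1 (0.57, adjusted p = 0.0506) and Oas2 (1.10 ± 0.39, adjusted p = 0.0537) were not called. Of other interferon-stimulated genes 9 of 36 fell and 1 rose (Phf11c −1.23, Oas1b −0.76, Phf11a −0.71), Ifng was lower (change −1.5, adjusted p = 0.00237), and of 16 receptor and signalling genes 6 fell and 1 rose (Ifngr2 1.30, Il10rb −0.65, Socs1 −0.51). Of 10 adaptor-list genes 2 rose and 2 fell (Tlr7 1.42, Tlr9 1.02, Cgas −0.59). Without replicate 41, the day 54 array, 12 genes were called, 6 of them higher (Dhx58, Ifi27l2a, Ifih1, Irf7, Oas2 and Trim25), and without replicate 40 there were 2. The groups also differ in strain label, stimulus, labelling protocol, day and RNA integrity number (6 to 8 in T-betKO, 8 to 9 in Stat5ca transferred cells). As a sex marker, the level of Xist minus that of Y-linked genes was −3.31 to 4.31 in T-betKO and 0.45 to 7.24 in Stat5ca transferred arrays. With it as a covariate 12 genes were called, 10 lower and 2 higher. The count over all genes in that fit stayed within 1.5 times of 4155, but its share in each direction is not given. The differences between the groups in strain label, stimulus, labelling protocol, day, RNA integrity and sex markers cannot be told apart from genotype. With the integrity number or the myeloid level as a covariate Ifi35 alone was called. Usp18 was at −1.21 (adjusted p = 0.0774) with the first and −0.81 (adjusted p = 0.0773) with the second. In the same comparison 5 of 8 CD8 T-cell markers were lower (median change −0.49), 2 of 17 myeloid and 2 of 5 plasmacytoid dendritic cell markers were higher, and the part of these cells in the result was not tested beyond the covariate fit. Tbx21 was at −3.60 and Stat5a at −0.75 (adjusted p = 0.00033).

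Arrays of one group differed among themselves in some of these genes. Naive replicates 33 and 35 averaged above 34 and 36 for 35 of the 37 genes, by 0.807 for Ifit1, 0.777 for Oas3 and 0.769 for Usp18. Their myeloid level was 8.09 and 8.92, against 11.50 and 11.34 on replicates 34 and 36. Against naive cells without 34 and 36, 30 genes were called lower in control 72 h cells and 0 higher, and without 33 and 35, 25 lower and 1 higher. For Stat5ca transferred cells the counts were 28 lower and 1 higher without 34 and 36. Without 33 and 35 they were 18 lower and 3 higher, and Usp18 was not called (−0.544, adjusted p = 0.196). Counts over all genes are not given for these fits of control 72 h and Stat5ca transferred cells. The counts of the 37 therefore cannot tell a change in these genes from a gain or loss of calls over all genes. In control 72 h cells Rtp4 had 9.00 and 9.09 on replicates 1 and 4 but 6.66 and 6.79, under background, on replicates 2 and 3. Usp18 ran the other way, with 9.90 and 10.03 on replicates 1 and 4 and 11.14 on each of replicates 2 and 3. The mean of replicates 1 and 4 minus that of 2 and 3 was 2.32 for Rtp4, −1.18 for Usp18, 0.88 for Herc6 and 0.86 for Parp12. The same pairs differed in sex markers, the level of Xist minus that of Y-linked genes being −3.77 and −3.80 on replicates 1 and 4 and 7.51 and 7.41 on replicates 2 and 3. The myeloid level was 9.12 and 9.05 on replicates 1 and 4 and 8.35 and 8.32 on replicates 2 and 3, the erythroid level 8.16 and 8.02 against 8.51 and 8.53, and the CD8 T-cell marker level 12.41 on each of replicates 1 and 4 against 12.70 and 12.72. All of these measures separated the same arrays and cannot be told apart here.

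In the transferred groups 2 kinds of genes separated. Rsad2 had 10.31, 10.45, 8.32 and 10.45 on replicates 11 to 14 of Stat5ca transferred cells, so that replicate 13 alone was near the 72 h level, and Isg20 had 11.04, 11.06, 9.89 and 11.15. The mean of 2 erythroid markers, Alas2 and Slc4a1, was 11.39, 11.39, 8.76 and 11.31 on those arrays, 9.30 and 13.48 in control transferred cells, and highest on the array of day 120 where Rsad2 (13.06) and Isg20 (13.23) were highest too. Over all 19 arrays, which share groups, Pearson's r with the erythroid level was 0.911 for Rsad2 and 0.758 for Isg20, given as a description. In T-betKO Stat5ca transferred cells Oas2 had 10.56 and 10.54 on day 14 but 8.43 on day 54, and Ifi27l2a had 10.65 and 10.60 on day 14 and 8.50 on day 54, while the myeloid level was 12.20, 12.11 and 10.47. Day 14 minus day 54 was 2.13 for Oas2, 2.13 for Ifi27l2a, 1.08 for Dhx58, 1.08 for Rtp4 and 1.03 for Oasl2. Over all 19 arrays r with the myeloid level was 0.573 for Oas2 but −0.184 for Ifi27l2a. Control 72 h arrays held Ifi27l2a at 10.69, 10.53, 10.34 and 10.75 with a myeloid level of 8.32 to 9.12. With the erythroid level as a covariate Rsad2 remained higher in control transferred than in control 72 h cells (1.34, adjusted p = 0.00934) and Isg20 was not called (0.58, adjusted p = 0.313). In that fit both were lower in Stat5ca transferred than in control transferred cells, Rsad2 at −1.29 (adjusted p = 0.00282) and Isg20 at −0.85 (adjusted p = 0.0476). Replicates 39 and 40 differed from 41 also in Xist minus Y (3.99 and 4.31 against −3.31), RNA integrity number (7 and 6 against 8) and CD8 T-cell marker level (11.88 and 11.76 against 12.35). Xist minus Y was 0.452 on replicate 13, against 7.242, 7.155 and 7.229 on replicates 11, 12 and 14. It was 3.26 on replicate 30 and −3.12 on replicate 32. These measures cannot be told apart here, and the part of myeloid RNA in the day 14 and day 54 values was not tested.

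**Figure D5:**
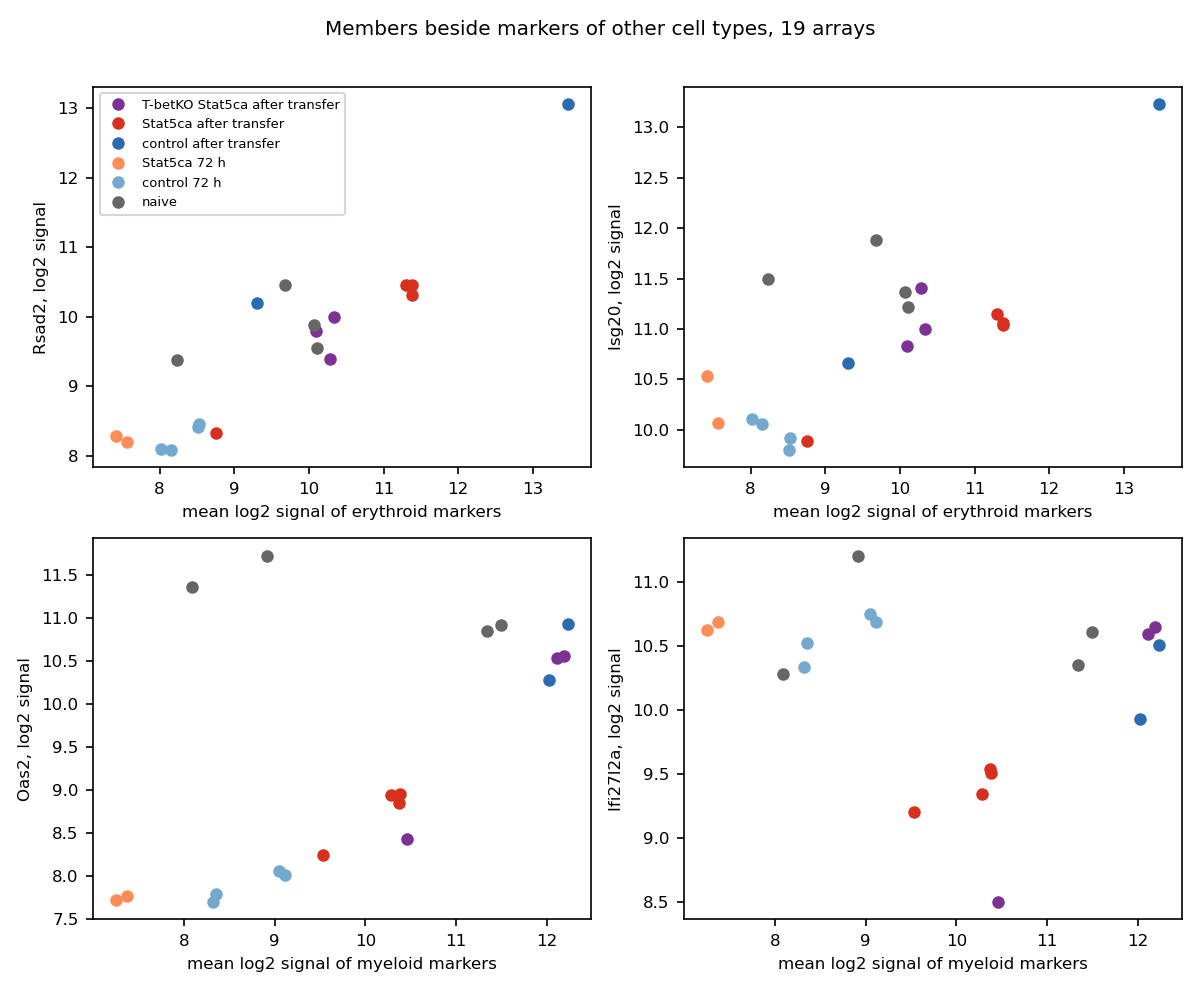
Log2 signal of Rsad2 and Isg20 against the mean of 2 erythroid markers, and of Oas2 and Ifi27l2a against the mean of 17 myeloid markers, 1 point per array and colour by group. Replicate 32 of control transferred cells is at the top right for Rsad2 (13.06) and Isg20 (13.23). Over 19 arrays r was 0.911 for Rsad2 and 0.758 for Isg20 with the erythroid level. With the myeloid level it was 0.573 for Oas2 and −0.184 for Ifi27l2a.

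The members did not all move together. Pearson's r between a gene and the mean of the other measured genes over the 19 arrays had a median of 0.722, from −0.191 for Trex1 to 0.955 for Ddx60. Several members moved within narrow limits over all 19 arrays: Bst2 between 9.19 and 10.33, Eif2ak2 between 8.69 and 9.77, Trim30a, a ubiquitin ligase, between 11.76 and 12.81, Adar, the RNA-editing deaminase, between 9.96 and 11.08, Ifit2 between 8.91 and 10.20 and Parp14, a large ADP-ribosyltransferase, between 10.04 and 11.29. A narrow range did not by itself mean a separate course. Among these genes r was 0.92 for Adar, 0.777 for Trim30a, 0.722 for Ifit2, 0.612 for Parp14 and 0.514 for Bst2, and lower for Eif2ak2. Cmpk2, a nucleotide kinase encoded beside Rsad2, ranged from 8.11 to 10.27. By the same measure Eif2ak2 (−0.073), Dtx3l (−0.060) and Parp9 (0.044) were near 0, and Mx2 (0.951) and Ifit1 (0.953) near the top. The genes outside the 37 with the most similar profile were Ifit3b (0.96), Rnf213 (0.942), Tnfrsf25 (0.926), Slfn5 (0.924), Znfx1 (0.919), Arhgap30 (0.913), Slc12a7 (0.901) and Zcchc2 (0.895). Ifit3b, a close copy of Ifit3, was under background in every group, and probes of the 2 copies may share signal. Slfn5, of the interferon-inducible schlafen family, averaged 9.64 in T-betKO Stat5ca transferred, 9.66 in Stat5ca transferred, 10.43 in control transferred, 7.63 in Stat5ca 72 h, 7.42 in control 72 h and 10.94 in naive cells.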

How the data were processed

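RNA of purified CD8 T lymphocytes was hybridised to 19 Affymetrix arrays. Each deposited file column holds log2 signals of 35557 probe sets, which the authors made with Affymetrix Expression Console, per the submitters' processing notes. How probe sets were summarised and normalised was not given in the sources used here, and the number of arrays limits the precision. Of the probe sets, 21789 were annotated to 1 gene, 1621 to several and 12147 to none, and the brightest single-gene probe set stood for each of 19938 genes. The values were used as deposited. Differences were tested with limma 3.58.1 (R 4.3.3, lmFit and eBayes). The 16 arrays of the 5 groups named TCRP1A formed one fit, and all 19 arrays were used for the T-betKO comparison. Benjamini-Hochberg adjustment was over all genes of a comparison, with a call at adjusted p under 0.05. The fits were tested on simulated data with independent noise on each array, which lacks the near-identity of some real arrays and so does not test its effect. Motif matching, tables and plots used Python 3.11.15 with numpy 2.4.6, pandas 2.3.3 and matplotlib 3.10.9.

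The 40 genes, the role groups, pathway lists and tests were chosen with earlier results of these data known. Irf7, Irf9, Usp18 and Ifit1 were named in every comparison, with up to 6 called genes of each direction whose groups did not overlap, up to 3 called genes of each pathway list, and 8 similar genes. Genes named for the spread between arrays of one group were chosen after their values were seen. Alternatives were other scalings and probe sets, left-out arrays, and covariates for RNA integrity, sex markers, myeloid and erythroid level, the last and the averaging of near-identical arrays added after seeing the data.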

Additional observations from a re-analysis of the deposited data

Results flagged for a closer look

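In groups of 4 arrays, 13 of 111 checks of one gene in one group found an array whose gap to the nearest other exceeded Dixon's 95% critical share of the group's range. That critical share assumes independent arrays, whereas some arrays of these groups were near-identical. The checks are not independent either, as a single array was flagged for several genes. The count of 13 is therefore a description and is not set against a chance rate. Naive replicate 35 was the high array for Ifit2 (10.2), Mx1 (9.93), Parp12 (10.84), Trim25 (11.05) and Cmpk2 (10.27). Replicate 13 of Stat5ca transferred cells was the low array for Isg20 (9.89), Oas2 (8.24), Rsad2 (8.32) and Parp12 (9.85) and the high one for Trim30a (12.3), and replicate 11 was low for Samd9l (10.46). Control 72 h replicate 3 was the low array for Ifit2 (8.92) and Ddx60 (6.93).

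The Stat5ca effect after transfer differed from that at 72 h, by the interaction term of limma with Benjamini-Hochberg adjustment, for 9 genes. The differences were −2.06 for Ifit3, −1.72 for Oas2, −1.47 for Ifit1, −1.24 for Irf7, −1.18 for Ifih1, −0.80 for Dtx3l, −0.79 for Oasl1, −0.66 for Dhx58 and −0.63 for Irf9.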

How the results depend on the processing

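Counts of the 37 genes, and of all genes, moved by more than 1.5 times under these alternatives. For control 72 h against naive cells, averaging near-identical arrays gave 5305 genes in place of 9334. For Stat5ca against control at 72 h (5 of the 37, 1140 genes), the count of the 37 was 2 with RNA integrity (Irf9 higher, Oasl2 lower), 2 with the myeloid level and 3 with the erythroid level as a covariate and 0 with averaged arrays (65 genes), the sex markers gave 1943 genes, and leaving out 1 array gave 0 to 5 of the 37 and 98 to 1794 genes. For control transferred against naive cells (11, 3538 genes), the counts were 6 of the 37 with arrays centred on their medians, 1 (323 genes) with the compared groups alone, 2 (583) with the myeloid and 3 (1205) with the erythroid level, 5 with averaged arrays, 19 (5767) without naive replicates 34 and 36, 5 (1718) without 33 and 35, and 3 to 14 of the 37 and 840 to 4693 genes with 1 array left out. For control transferred against control 72 h cells (7476 genes) the myeloid level gave 3814 genes and turned Ifitm3 to −0.451. For Stat5ca against control after transfer (12, 5058 genes), the compared groups alone gave 19 of the 37, the myeloid level 2935 genes, averaged arrays 7 of the 37 and 2870 genes, and 1 array left out 6 to 12 of the 37 and 2716 to 4472 genes. For Stat5ca transferred against Stat5ca 72 h cells (17, 4243 genes), the erythroid level gave 11 (2272 genes), averaged arrays 9 (2483), and 1 array left out 8 to 19 and 2144 to 3844 genes. For Stat5ca transferred against naive cells (26, 5697 genes), averaged arrays gave 17 (2504). For the difference between the Stat5ca effects (9, 3549 genes), the compared groups alone gave 14, RNA integrity 4 (3 lower, 1 higher), averaged arrays 3 (1487 genes), and 1 array left out 4 to 8 and 1985 to 3806 genes. For T-betKO Stat5ca against Stat5ca after transfer (6, 4155 genes), RNA integrity gave 1 (1379 genes), the myeloid level 1 (2552), the sex markers 12, averaged arrays 0 (183), leaving out replicates 39 and 40 gave 1 (715), and 1 array left out gave 2 to 12 and 1790 to 5237 genes. The cause of these shifts was not tested, except that averaging and leaving out arrays leave fewer samples. Where only a count of the 37 is given here, the count over all genes in that fit stayed within 1.5 times of the main one. Such a count of the 37 is not set against a share of all genes.

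No paired analysis was made because nothing in the labels says whether arrays of different groups are paired. Quantile scaling, averaging of a gene's probe sets and leaving out dim genes moved no count of the 37 by over 1.5 times. Ifit3, Mx1, Mx2 and Ddx60 lay near background in some groups, which limits the size of their changes.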
